A study of Mus musculus with 9 samples.

Results

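Cebpa, Cebpb, Cebpd, Cebpe, Cebpg, Cebpz and Gfi1 are the genes of the C/EBP transcription factors, of a CCAAT box protein that carries a related name, and of the repressor Gfi1. They were taken by symbol from a table of RNA levels, with the transcripts of a gene summed, and are 7 of the 16537 genes listed there. All 7 passed the filter on low counts that left 12837 genes to test. The choice of the 7 rested on their names and not on a threshold.

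The table holds RNA-seq of bone marrow cells that were sorted from mice of the inbred strain FVB/NJ, as 9 libraries in 3 groups. The median LP and early LP groups are leukemic progenitors (LP) of genotype PML-RAR at the phases that the labels call median and early, with 3 libraries each. The HPC group is made of wild type hematopoietic progenitor cells, from which the blood lineages form, at postnatal day 42, also with 3 libraries. PML-RAR is the fusion protein of acute promyelocytic leukemia, in which blasts halt at the promyelocyte stage of granulocyte formation. The sources used here do not give the promoter that drives the fusion, the markers used to sort the cells or an age in days of the LP mice. A difference between LP and HPC therefore cannot be told apart from one of age or of the sorted mix of cells, and fewer cells of a type cannot be told apart from less RNA per cell. Nothing in the labels tells whether libraries of 1 group come from separate animals, so each p-value measures the spread between these libraries, which may be technical.

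C/EBP alpha, beta, delta, epsilon and gamma are basic leucine zipper proteins that bind the same DNA element as pairs. In the bone marrow C/EBP alpha opens the path from multipotent progenitors to granulocytes, C/EBP beta serves demand-driven granulopoiesis, and C/EBP epsilon is needed at the late stages, when secondary granules form. Gfi1 is a zinc finger repressor that recruits the histone demethylase Lsd1 with CoREST and favours the neutrophil over the monocyte fate.

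The genes lie on mm10 as follows. Cebpa covers chr7:35119293-35121931 on the plus strand and Cebpb chr2:167688915-167690418 on the plus strand, each as 1 exon. Cebpg covers chr7:35046422-35056566 on the minus strand, near Cebpa, and Cebpe chr14:54710363-54712174 on the minus strand, with 2 exons each. Gfi1 covers chr5:107716655-107725805 on the minus strand, with transcripts of 7 and 6 exons from starts 1462 bases apart. Cebpd (GENCODE gene chr16:15887286-15891031, 1 exon) and Cebpz (chr17:78919006-78937066, 16 exons) each share a locus of the deposited table with another gene, 2310008H04Rik for Cebpd and 1110001A16Rik for Cebpz. Whether counting used strand is not given in the sources, so reads of Cebpd and Cebpz and of these neighbours may be divided between them with error.

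The 300 bases around the start of a gene, 250 before and 50 after it, were available from RefSeq on GRCm38.p6, the patch release of mm10, for 4 of the 7 genes. They are shown because Cebpa, Cebpb and Gfi1 are among the genes with the largest differences below, Cebpg is a C/EBP gene with a small one, and Gfi1 is read from both of its starts. Capitals mark each match, on either strand, to the TATA box (TATAAA), the CCAAT box (CCAAT), the core of the cyclic AMP response element (TGACG), the core of the C/EBP element (TTGCGC), its longer form (TTGCGCAA) or the Gfi1 core (AAATC).
Cebpa, chr7:35119043-35119342, plus strand: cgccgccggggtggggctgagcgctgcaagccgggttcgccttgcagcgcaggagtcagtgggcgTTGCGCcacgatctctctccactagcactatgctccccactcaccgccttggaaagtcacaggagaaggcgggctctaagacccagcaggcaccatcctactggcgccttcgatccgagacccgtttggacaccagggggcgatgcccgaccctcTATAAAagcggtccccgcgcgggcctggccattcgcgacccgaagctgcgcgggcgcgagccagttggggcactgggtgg
Cebpb, chr2:167688665-167688964, plus strand: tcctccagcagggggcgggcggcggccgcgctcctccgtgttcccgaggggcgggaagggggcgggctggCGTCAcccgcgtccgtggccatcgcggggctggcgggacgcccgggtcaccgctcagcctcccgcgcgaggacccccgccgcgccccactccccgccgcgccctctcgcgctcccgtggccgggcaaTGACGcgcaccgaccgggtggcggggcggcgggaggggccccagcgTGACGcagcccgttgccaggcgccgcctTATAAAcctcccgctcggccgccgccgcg
Cebpg, chr7:35056517-35056816, minus strand: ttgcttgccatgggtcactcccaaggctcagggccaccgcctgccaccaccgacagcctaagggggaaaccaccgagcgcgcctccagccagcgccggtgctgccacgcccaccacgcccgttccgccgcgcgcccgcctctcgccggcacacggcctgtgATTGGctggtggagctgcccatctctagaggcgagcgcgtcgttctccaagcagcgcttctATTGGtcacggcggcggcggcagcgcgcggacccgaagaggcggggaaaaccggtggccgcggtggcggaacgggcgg
Gfi1, upstream start, chr5:107725756-107726055, minus strand: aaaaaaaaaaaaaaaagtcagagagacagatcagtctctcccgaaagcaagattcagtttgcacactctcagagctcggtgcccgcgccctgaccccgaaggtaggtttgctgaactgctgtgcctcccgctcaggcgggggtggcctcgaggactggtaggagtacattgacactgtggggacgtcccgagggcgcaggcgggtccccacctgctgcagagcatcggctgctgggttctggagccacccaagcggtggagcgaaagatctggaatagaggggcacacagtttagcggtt
Gfi1, downstream start, chr5:107724294-107724593, minus strand: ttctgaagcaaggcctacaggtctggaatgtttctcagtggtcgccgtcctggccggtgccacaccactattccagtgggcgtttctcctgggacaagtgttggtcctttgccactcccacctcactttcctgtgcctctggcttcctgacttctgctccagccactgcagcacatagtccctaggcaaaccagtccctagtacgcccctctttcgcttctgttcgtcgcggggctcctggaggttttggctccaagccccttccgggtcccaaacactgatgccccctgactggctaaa

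TATAAA began 30 bases before the Cebpa start and at base 22 after the Cebpb start as RefSeq places it. TTGCGC began 185 bases before the Cebpa start. TGACG was found 3 times in the Cebpb window, 180 (on the minus strand), 53 and 7 bases before the start. CCAAT was found 2 times in the Cebpg window, 89 and 28 bases before the start, each on the minus strand and so printed as its complement. Neither Gfi1 window held any of the motifs, AAATC included. Of 32851 mouse promoter windows of this length, 13.6% held the TATA box, 6.49% the core of the C/EBP element, 0.183% its longer form, 20.8% the cyclic AMP core, 37.4% the CCAAT box and 35.9% the Gfi1 core. The matches are letters in a window and were not measured as binding.

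Depth was 20.6 to 28.4 M (mega) fragments per library as recovered from the steps of the estimated counts. Across genes, log2 levels correlated at 0.990 to 0.995 within a group and at 0.776 to 0.806 between LP and HPC libraries. The labelled cell types were checked against marker genes. A marker is counted as higher or lower where the test given below called it so relative to HPC. Such calls were common, at 36.0% higher and 37.7% lower over all tested genes in median LP. For early LP these shares were 35.3% and 37.9%. The 7 stem and progenitor markers summed to 240 to 256 CPM (counts per 1 M counts) in median LP, 257 to 258 in early LP and 912 to 1006 in HPC, and 7 of 7 were lower in each LP phase. Kit made up nearly all of the LP sums, with 247 CPM in median LP, 251 in early LP and 437 in HPC on average. Its log2 change was -0.82 in median LP and -0.80 in early LP, where the median of the 7 was -7.49 and -6.28. The 6 promyelocyte markers summed to 28681 to 30696 CPM in median LP, 34918 to 39905 in early LP and 13178 to 14838 in HPC, and 5 of 6 were higher in each LP phase. RNA of other lineages also differed. The 8 erythroid markers summed to 140 to 213 CPM in median LP, 13.1 to 19.5 in early LP and 2737 to 3159 in HPC, with 1 of the 7 tested higher and 6 lower in median LP and 7 of 7 lower in early LP. The 6 megakaryocyte markers summed to 4.06 to 4.97, 4.66 to 6.83 and 102 to 130 CPM in median LP, early LP and HPC (4 of 6 lower in each LP phase). The 6 basophil and mast cell markers summed to 27.3 to 31.0, 32.3 to 37.5 and 218 to 250 CPM in the same order of groups, with 1 higher in each LP phase, and 4 lower in median LP and 5 in early LP. The 5 eosinophil markers summed to 12.0 to 19.7, 26.0 to 40.9 and 133 to 253 CPM (4 of 5 lower in each LP phase). The 8 monocyte markers summed to 158 to 170, 115 to 119 and 91.9 to 118 CPM, with 2 of the 7 tested higher in each phase, and 2 lower in median LP and 4 in early LP. B cell markers summed to at most 2.90, 0.878 and 16.9 CPM and T and NK cell markers to at most 1.03, 0.250 and 9.32 CPM. Pax5 was at 0 in every early LP and HPC library, Cd8a in the same libraries, Cd3g in every early LP library, and Cd3e and Gzma in every HPC library. The part of these cells in the results below was not tested.

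Against HPC, the C/EBP genes and Gfi1 were mostly higher in the leukemic progenitors, and 4 of them, Cebpa, Cebpb, Cebpd and Gfi1, were at least 2-fold higher in both phases. In median LP 5 of 7 were called higher, 1 lower and 1 not, at an adjusted p under 0.05 in edgeR's quasi-likelihood test, where 73.8% of all tested genes were called (36.0% higher, 37.7% lower). In early LP 6 of 7 were called higher and 1 lower, where 73.2% of all tested genes were called (35.3% higher, 37.9% lower). A call alone is thus close to what most genes did in these comparisons. A call of at least 2-fold higher was made for 4 of 7 in each phase, against 16.2% of tested genes in median LP and 15.6% in early LP. The libraries of median LP and HPC did not overlap for 6 of 7 genes, 5 of them higher and 1 lower in median LP, where this was so for 75.7% of all tested genes (36.8% higher, 39.0% lower). Early LP and HPC likewise did not overlap for 6 of 7, 5 higher and 1 lower, against 74.7% of all tested genes (36.3% higher, 38.4% lower). The median log2 change of the 7 was 1.61 in median LP and 1.39 in early LP, while that of all tested genes was -0.04 in each. The 2 comparisons share the HPC libraries, so their values are given side by side. The chromosomes that carry the 7 genes had median log2 changes between -0.14 and -0.04 in median LP and between -0.18 and -0.003 in early LP.

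**Figure D1:**
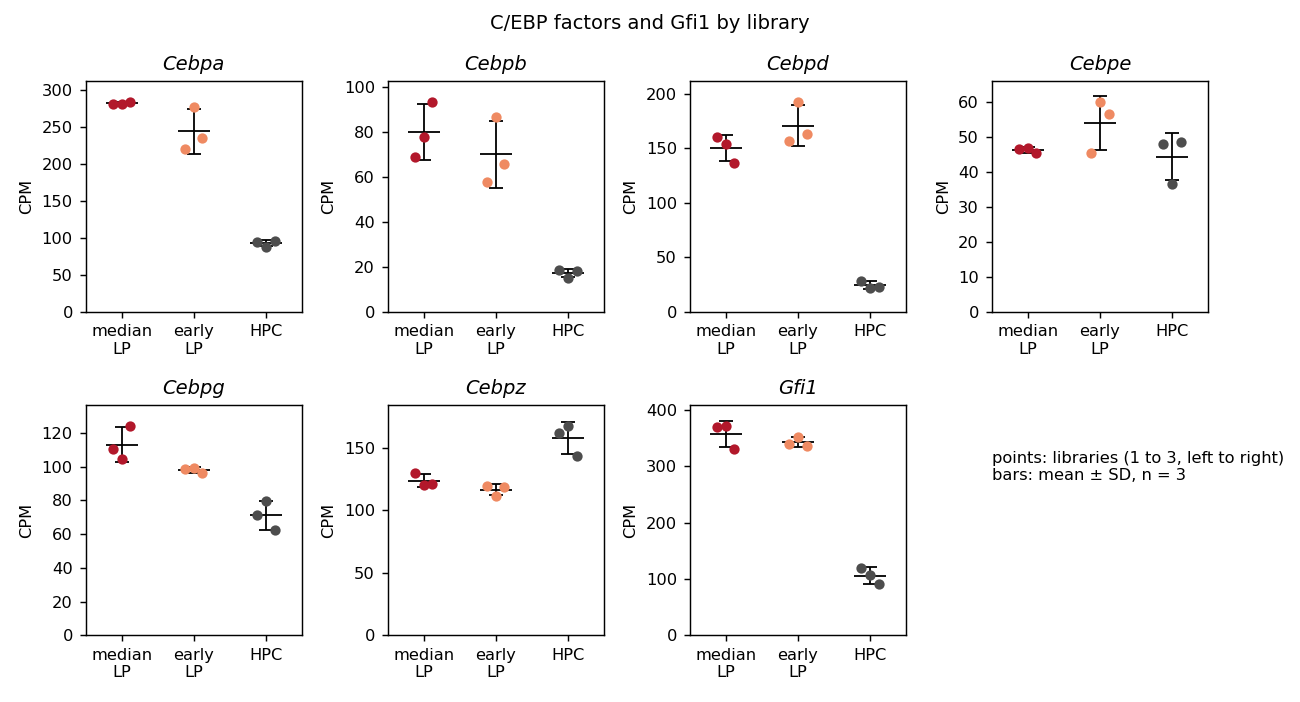
RNA level of each gene in CPM (vertical axis, from 0) for the median LP, early LP and HPC libraries (horizontal axis), with points for libraries and bars for the mean ± SD of 3. Cebpa, Cebpb, Cebpd and Gfi1 stand far higher in every LP library than in every HPC library, Cebpe overlaps, and Cebpz is lower in LP.

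Cebpa, the founding factor of the granulocyte path, had 281, 281 and 284 CPM in median LP, 219, 277 and 235 CPM in early LP, and 94.4, 87.8 and 95.9 CPM in HPC. Every LP library lay above every HPC library. It rose 3.04-fold in median LP (log2 1.61, SE 0.09, adjusted p = 9.03e-09) and 2.63-fold in early LP (log2 1.39, SE 0.09, adjusted p = 3.18e-08).

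Cebpb, which takes over from C/EBP alpha when granulocytes are made on demand, had 68.8, 77.8 and 93.4 CPM in median LP, 57.8, 86.7 and 66.0 CPM in early LP, and 18.5, 15.2 and 18.1 CPM in HPC. The LP libraries varied among themselves but none overlapped with HPC. The increase was 4.63-fold in median LP (log2 2.21, SE 0.16, adjusted p = 1.11e-07) and 4.06-fold in early LP (log2 2.02, SE 0.16, adjusted p = 2.47e-07).

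Cebpd, a factor induced in acute inflammation and in maturing myeloid cells, showed the largest increase of the 7 in both phases. It had 160, 154 and 137 CPM in median LP, 157, 192 and 163 CPM in early LP, and 28.2, 21.3 and 22.7 CPM in HPC, without overlap of LP and HPC. It rose 6.25-fold in median LP (log2 2.64, SE 0.12, adjusted p = 1.81e-09) and 7.10-fold in early LP (log2 2.83, SE 0.12, adjusted p = 1.13e-09). The gene that shares its locus, 2310008H04Rik, had 76.4 ± 2.32, 72.4 ± 3.85 and 50.7 ± 3.72 CPM in median LP, early LP and HPC, and rose by only 0.59 and 0.51 on the log2 scale in median and early LP.

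Cebpe, the factor of late granulocyte stages, was the C/EBP gene whose level stayed closest to that of HPC. It had 46.5, 46.9 and 45.3 CPM in median LP, 45.5, 60.1 and 56.6 CPM in early LP, and 48.0, 36.6 and 48.6 CPM in HPC. The groups overlapped in each comparison with HPC. In median LP the log2 change was 0.06 (SE 0.12, adjusted p = 0.674, 95% interval -0.17 to 0.29), and with offsets for GC content and length it was 0.24 and a call higher (adjusted p = 0.0172). In early LP it was 0.28 (SE 0.12, 95% interval 0.05 to 0.51), called at an adjusted p of 0.0457, which is 1.22-fold. That call ended when HPC 2, early LP 2 or early LP 3 was left out (adjusted p = 0.131, 0.173 and 0.119), and when any median LP library was left out of the common fit (0.0524 to 0.0568). HPC 2, which had the lowest Cebpe, also had the lowest sum of the 7 late neutrophil markers in its group, 989 CPM against as much as 1966 CPM in HPC. The same sum was 517 to 552 CPM in median LP and 783 to 885 CPM in early LP. The part of mature neutrophils in the Cebpe level was not tested.

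Cebpg, a C/EBP protein without a strong activation domain that pairs with other leucine zipper factors, among them Atf4, had 110, 104 and 124 CPM in median LP, 98.8, 99.2 and 96.1 CPM in early LP, and 71.3, 79.4 and 62.4 CPM in HPC. All LP libraries lay above HPC, by a small margin. It rose 1.59-fold in median LP (log2 0.67, SE 0.09, adjusted p = 3.26e-05) and 1.38-fold in early LP (log2 0.46, SE 0.09, adjusted p = 0.000618). Cebpg lies near Cebpa on chromosome 7, and its increase was less than 2-fold where that of Cebpa was more.

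Cebpz, a nucleolar CCAAT box protein of ribosome formation that has no leucine zipper, was the only gene of the 7 called lower, in both phases. It had 130, 120 and 121 CPM in median LP, 119, 111 and 119 CPM in early LP, and 162, 168 and 143 CPM in HPC, without overlap of LP and HPC. The log2 change was -0.35 in median LP (SE 0.07, adjusted p = 0.000987) and -0.44 in early LP (SE 0.07, adjusted p = 0.000191). Its locus partner 1110001A16Rik had 8.53 ± 0.246, 7.84 ± 0.981 and 10.1 ± 1.58 CPM in median LP, early LP and HPC. Its log2 change was -0.25 in median LP (adjusted p = 0.119) and -0.37 in early LP (adjusted p = 0.0274), where it was called lower as Cebpz was.

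Gfi1 had 370, 372 and 331 CPM in median LP, 341, 353 and 336 CPM in early LP, and 120, 107 and 90.6 CPM in HPC. The libraries of both phases lay in a narrow band far above HPC. It rose 3.37-fold in median LP (log2 1.75, SE 0.10, adjusted p = 1.28e-08) and 3.23-fold in early LP (log2 1.69, SE 0.10, adjusted p = 1.79e-08).

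**Figure D2:**
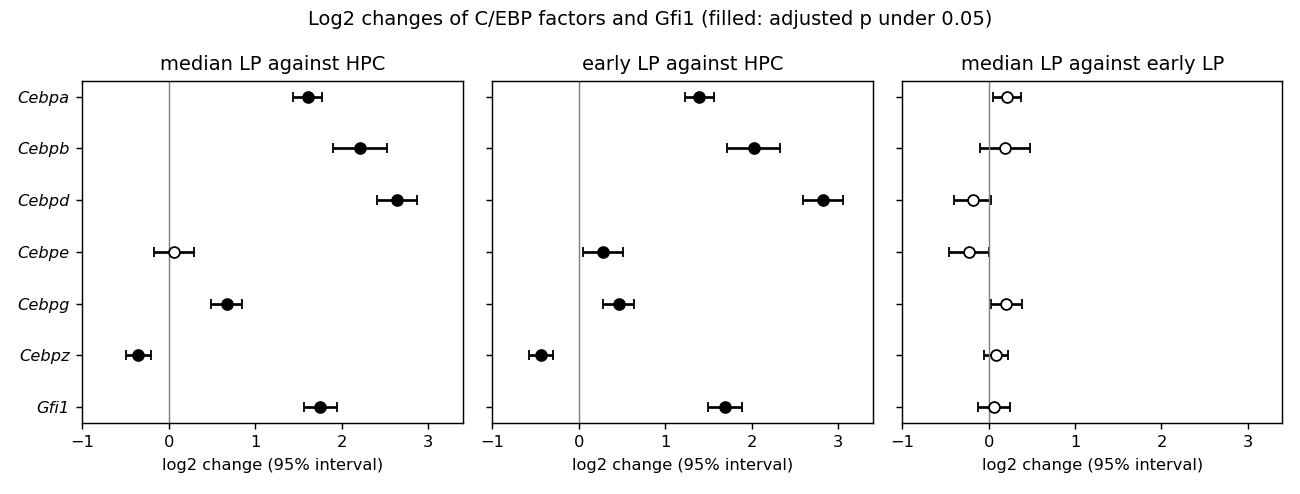
Log2 change of each gene (points, with approximate 95% intervals) in median LP against HPC, early LP against HPC and median LP against early LP. Filled points passed an adjusted p of 0.05 in edgeR. Cebpd has the largest increase against HPC, Cebpe lies near 0, and no gene is filled between the phases.

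Between the phases, 0 of 7 genes were called in edgeR's test, where 2.48% of all tested genes were called (1.48% higher, 0.997% lower in median LP). DESeq2 also called 0 of 7, where it called 576 genes in all. At an unadjusted p under 0.05 edgeR found 2, Cebpa and Cebpg, whose adjusted p were 0.237 and 0.282. Cebpa differed by 0.21 on the log2 scale, median minus early LP (95% interval 0.05 to 0.38), and its 3 median LP libraries lay above its 3 early LP libraries. Cebpg differed by 0.21 (0.03 to 0.38), also without overlap, and Cebpz by 0.09 (-0.06 to 0.23), again without overlap. The phases thus did not overlap for 3 of 7 genes, all higher in median LP, where this was so for 26.1% of all tested genes (12.4% higher, 13.7% lower). For Cebpb the difference was 0.19 (-0.10 to 0.47), for Cebpd -0.18 (-0.40 to 0.03), for Cebpe -0.23 (-0.46 to 0.004) and for Gfi1 0.06 (-0.13 to 0.25). The bounds of these intervals reach 0.47 on the log2 scale. They rest on a normal approximation, which makes them narrower than the test itself would give, so larger differences remain possible. Cebpb, Cebpa and Cebpe had the highest GC content of the set, 67.2%, 62.6% and 61.5%. The transcripts of Gfi1 followed with 57.2% and 57.4%, and Cebpd had 51.6%. Among the early LP libraries Cebpa, Cebpb, Cebpd and Cebpe were each lowest in early LP 1 and highest in early LP 2. Gfi1 had 341, 353 and 336 CPM in early LP 1, 2 and 3 and so was lowest in early LP 3. The GC slope of a library, the change of the log2 level with the GC fraction, was -0.967 in early LP 1 and 0.837 in early LP 2. With offsets for GC content and length per library, Cebpa differed by 0.37 (adjusted p = 0.00176) and Cebpb by 0.54 (adjusted p = 0.0283), which are then calls higher in median LP. Cebpe differed by -0.07 (adjusted p = 0.673) and Cebpd by -0.18 (adjusted p = 0.316) in that fit. With a replicate block beside the offsets the Cebpb difference was 0.53 and no longer a call (adjusted p = 0.0545).

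Levels of different genes were compared per length, in FPKM (fragments per kilobase and 1 M fragments). On this scale Gfi1 and Cebpa led in every group. Gfi1 stood at 129 ± 12.9 FPKM in median LP, 124 ± 4.66 in early LP and 39.3 ± 4.90 in HPC, and Cebpa at 114 ± 6.97, 98.8 ± 13.1 and 38.9 ± 1.95 FPKM (SD, n = 3 each). Their library values overlapped in median LP and in HPC and did not in early LP. In median LP they were followed by Cebpb (82.9 to 103 FPKM), Cebpd (60.5 to 76.3), Cebpe (34.7 to 39.5), Cebpz (20.2 to 22.5) and Cebpg (17.7 to 21.0), and among these only the neighbours Cebpz and Cebpg overlapped. In early LP Cebpb (60.7 to 98.2 FPKM) overlapped with Cebpa above it and with Cebpd (69.6 to 88.5) below it, and Cebpe (34.8 to 47.8), Cebpz (20.0 to 20.7) and Cebpg (17.1 to 17.9) followed without overlap. In HPC the order was another: Cebpe (29.7 to 39.1 FPKM) came next to Cebpa and overlapped with it, followed by Cebpz (27.3 to 29.5), Cebpb (17.2 to 20.3), Cebpg (12.6 to 14.5) and Cebpd (9.97 to 13.2), of which Cebpg and Cebpd overlapped. The FPKM of a gene per estimated count and kilobase differed between genes, and parts of this order turned when levels were taken as estimated counts per kilobase, scaled to 1 M per library. Cebpd then stood above Cebpb, with 128 ± 9.21 against 102 ± 17.3 in median LP (with overlap) and 138 ± 19.2 against 85.6 ± 20.3 in early LP (without overlap). In HPC Gfi1 (64.1 to 95.4 counts per kilobase), Cebpz (66.9 to 90.5), Cebpe (65.1 to 83.0) and Cebpa (69.1 to 76.5) all overlapped on that scale, with Cebpa the lowest of the 4 on average, and Cebpg (25.2 to 37.1) was above Cebpb (22.2 to 26.3) on average. Among the 16537 genes ranked by mean FPKM, Cebpd stood at rank 1104 in median LP, 1023 in early LP and 5828 in HPC, and Cebpe at rank 2178, 1904 and 2235.

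The makeup of the C/EBP family differed between LP and HPC. The FPKM of the 5 leucine zipper genes summed to 330 ± 16.2 in median LP, 316 ± 48.1 in early LP and 118 ± 8.95 in HPC. Cebpa held 34.6% ± 0.871 of that sum in median LP, 31.4% ± 0.625 in early LP and 32.9% ± 1.23 in HPC, with overlap between each LP phase and HPC. Cebpe held 11.1% ± 0.517, 13.6% ± 0.940 and 30.1% ± 2.32 in median LP, early LP and HPC. Its share was lower in every LP library than in every HPC library, with differences of -18.9 percentage points in median LP and -16.5 in early LP.

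Cebpd held 20.7% ± 2.02 in median LP, 24.8% ± 1.03 in early LP and 9.57% ± 0.900 in HPC. Cebpb held 27.8% ± 2.96, 24.7% ± 2.18 and 16.0% ± 0.303 in these groups, and Cebpg 5.86% ± 0.445, 5.61% ± 0.802 and 11.5% ± 1.69. The shares of Cebpb, Cebpd, Cebpe and Cebpg did not overlap between either LP phase and HPC. Each of these differences had a two-sided exact permutation p of 0.1, the smallest that 3 against 3 libraries can give, so none can pass 0.05. From counts per kilobase the share of Cebpb was 18.4% in median LP, 16.6% in early LP and 10.6% in HPC. That of Cebpa was then 37.1% ± 0.437 in median LP, 33.1% ± 0.312 in early LP and 32.5% ± 1.17 in HPC, so median LP no longer overlapped with HPC (a difference of 4.62 percentage points, against 1.70 from FPKM). For early LP, which still overlapped, the difference was 0.597 percentage points, against -1.52 from FPKM.

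**Figure D3:**
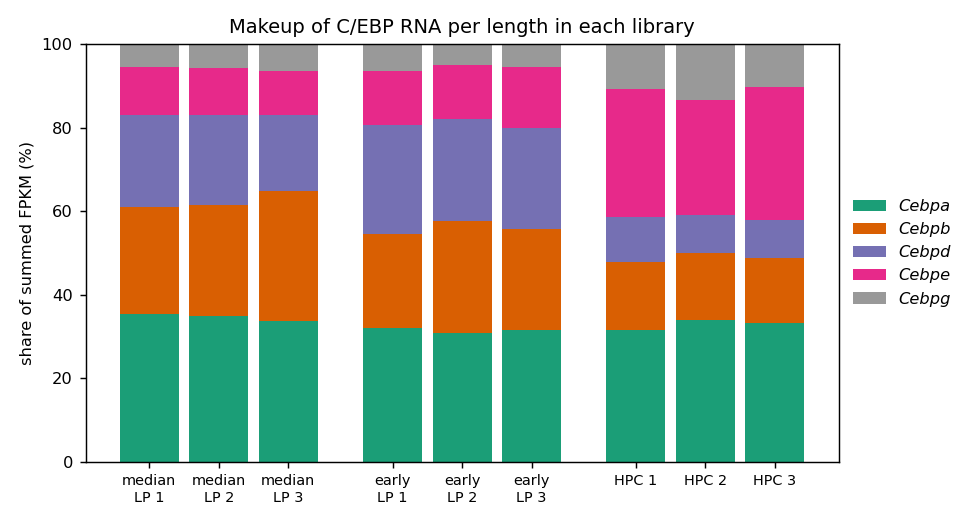
Share of each leucine zipper gene in the summed FPKM of the 5 (vertical axis, percent) in each library (bars). The Cebpa share lies between 30.7% and 35.3% in every library, while Cebpe takes 11.1% in median LP, 13.6% in early LP and 30.1% in HPC on average, and Cebpb and Cebpd take more in LP.

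The ratio of Cebpa to Cebpe, the early and the late factor of the granulocyte path, was 3.09, 3.06 and 3.20 in median LP, 2.46, 2.34 and 2.15 in early LP, and 1.03, 1.24 and 1.04 in HPC. It was 2.84-fold higher in median LP and 2.11-fold higher in early LP than in HPC, and 1.35-fold higher in median LP than in early LP, with no overlap in any pair of groups. Each exact permutation p was 0.1, two-sided, the smallest possible.

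The same pattern over the 9 libraries was sought in other genes that averaged 5 CPM or more and lie outside shared loci, by the root mean square distance of log2 CPM centred on each gene's own mean. Nearest to Cebpa were Cbx7 (distance 0.0650), Grina (0.0725) and Smpdl3a (0.0781). Nearest to Cebpb were Aacs (0.145), Csf2rb2 (0.158) and Degs1 (0.164), and nearest to Cebpd were Mgl2 (0.106), Fkbp11 (0.111) and Serpine2 (0.122). Cebpe was most like 3010026O09Rik (0.0663), 1810043H04Rik (0.0759) and E2f1 (0.0831), and Cebpg most like Klhl9 (0.0664), Dcun1d3 (0.0677) and Fpgt (0.0680). For Cebpz they included Kif4 (0.0327) and Hnrnpa2b1 (0.0367), and for Gfi1 they were Nedd9 (0.0527), Hsd17b7 (0.0748) and Plekha2 (0.0769). Among the 7 genes themselves the closest pair was Cebpa and Gfi1 (0.188) and the most distant Cebpd and Cebpz (1.49). The libraries of a group and their scaling are shared by all of these points.

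Regulators of C/EBP genes and proteins were read from a list of 13 genes analysed, of which 6 were called higher, 6 lower and 1 not in median LP, and 7 higher and 6 lower in early LP. Of all tested genes 36.0% were called higher and 37.7% lower in median LP, and 35.3% and 37.9% in early LP, so most genes of any list are called. The median log2 change of the regulators was 0.14 in median LP and 0.23 in early LP. Trib2, a pseudokinase that directs C/EBP alpha protein to degradation, nearly vanished, with 0.431 ± 0.176 CPM in median LP, 0.226 ± 0.0215 in early LP and 79.1 ± 5.98 in HPC (log2 -7.50 and -8.42 in median and early LP). Its paralogs went the other way. Trib1, which acts on C/EBP alpha in the same manner, had 5.58 ± 2.33 CPM in median LP, 11.0 ± 3.32 in early LP and 1.51 ± 0.652 in HPC (log2 1.88 and 2.85). Trib3, a stress-induced paralog, had 5.76 ± 1.19, 4.69 ± 0.657 and 0.176 ± 0.0807 CPM (log2 4.98 and 4.69). The HPC level of Trib3 rests on 14 recovered fragments, and the Trib2 levels on 32 in median LP and 15 in early LP. Alternatives took the change of Trib3 down to 1.82 in median LP and 1.62 in early LP. Those of Trib2 reached -4.15 and -4.21.

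Runx1, a factor that binds a Cebpa enhancer, stood at 153 ± 6.95 CPM in median LP and 141 ± 3.47 in early LP, against 95.7 ± 9.68 in HPC (log2 0.67 and 0.56). Its most abundant transcript alone changed by 2.14 in median LP and 1.998 in early LP on the log2 scale. Its partner Cbfb had 291 ± 3.32, 294 ± 8.21 and 165 ± 7.71 CPM in median LP, early LP and HPC (log2 0.82 and 0.83). Calr, whose protein calreticulin has been described as a block to translation of Cebpa RNA in human leukemia cells, had 5048 ± 213, 5295 ± 337 and 1916 ± 128 CPM (log2 1.40 and 1.47). Flt3, the cytokine receptor whose mutant forms lead to phosphorylation of C/EBP alpha, had 0.901 ± 0.285, 1.34 ± 0.139 and 77.0 ± 16.1 CPM (log2 -6.41 and -5.84). All of these passed the test against HPC, with adjusted p of at most 0.00107.

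Known targets of C/EBP alpha were mostly higher in LP. Of 15 genes of that list, 10 were called higher, 2 lower and 3 not in median LP, and 10 higher, 3 lower and 2 not in early LP, with median log2 changes of 1.44 and 1.42. The shares over all tested genes were 36.0% higher and 37.7% lower in median LP, and 35.3% and 37.9% in early LP. Csf2rb, the beta chain shared by the receptors for GM-CSF and interleukins, had 589 ± 29.7 CPM in median LP, 530 ± 18.6 in early LP and 79.3 ± 8.95 in HPC (log2 2.89 and 2.74 in median and early LP). It has a near-identical paralog, Csf2rb2, with which reads may be exchanged. Csf2ra, the alpha chain for GM-CSF, rose by 1.76 and 1.82 on the log2 scale, and Csf3r, the receptor for G-CSF and a classic target of C/EBP alpha, by 1.12 and 0.92.

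The proteases of primary granules were not alike. Ctsg, cathepsin G, rose by 2.25 and 2.60 on the log2 scale in median and early LP, and Elane, neutrophil elastase, by 1.44 and 1.83. Prtn3, proteinase 3, was not called in either phase, with log2 changes of -0.20 (adjusted p = 0.0620) and 0.17 (adjusted p = 0.102). Mpo, Elane, Prtn3 and Ctsg of this list are also promyelocyte markers. Csf1r, the receptor for M-CSF, fell to 21.7 ± 2.57 CPM in median LP and 17.1 ± 1.94 in early LP, against 57.9 ± 5.60 in HPC (log2 -1.42 and -1.76). Sox4, a stem cell factor that C/EBP alpha represses, had 0.348 ± 0.164 CPM in median LP, 0.410 ± 0.175 in early LP and 47.1 ± 0.500 in HPC (log2 -7.07 and -6.83). Between the phases 0 of 15 were called by edgeR, while DESeq2 called 1 higher and 4 lower in median LP. Over all tested genes edgeR called 2.48% between the phases, and DESeq2 called 325 genes higher and 251 lower.

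Targets of C/EBP epsilon and other late granulocyte genes were divided. Of 16 genes, 7 were called higher, 7 lower and 2 not in median LP, and 7 higher, 4 lower and 5 not in early LP, with median log2 changes of -0.33 and 0.27. Over all tested genes 36.0% were called higher and 37.7% lower in median LP, and 35.3% and 37.9% in early LP. The higher ones included Cd177, a surface protein of neutrophils, with 740 ± 29.5 CPM in median LP, 650 ± 39.4 in early LP and 63.1 ± 16.2 in HPC (log2 3.55 and 3.37), and S100a8, a calcium-binding protein of the neutrophil cytosol (log2 2.49 and 2.19).

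Among the proteins of secondary granules, Ltf, lactoferrin, had 55.4, 62.6 and 46.3 CPM in median LP, 154, 192 and 158 CPM in early LP, and 530, 310 and 494 CPM in HPC, with no overlap between any of the groups. It fell by 3.02 on the log2 scale in median LP and by 1.41 in early LP. Ngp, neutrophilic granule protein, fell by 2.20 and by 1.47. Camp, the cathelicidin, had a log2 change of -0.49 in median LP (adjusted p = 0.0654) and -0.31 in early LP (adjusted p = 0.226). It had 521, 218 and 386 CPM in HPC 1, 2 and 3, and is itself part of the late neutrophil sum that was lowest in HPC 2. Without HPC 2 it was called lower in both (log2 -0.74 and -0.56). Over all leave-outs the Camp change ran from -0.74 to -0.15 in median LP and from -0.56 to 0.02 in early LP. Mmp8, the collagenase of these granules, had 5.07 ± 0.762 CPM in median LP, 18.7 ± 1.56 in early LP and 16.3 ± 3.78 in HPC, and was called lower in median LP (log2 -1.69) and not called in early LP (log2 0.20, adjusted p = 0.273), where leaving out HPC 3 gave a call higher (log2 0.37, adjusted p = 0.0374). Chi3l1, a granule protein of neutrophils named here after its values were seen, was called higher in both phases, by 0.46 (adjusted p = 0.0190) in median LP and 0.68 (adjusted p = 0.00204) in early LP. Between the phases 4 of 16 were called lower and 0 higher in median LP by edgeR, and DESeq2 called 1 higher. In that comparison edgeR called 1.48% of all tested genes higher and 0.997% lower, and DESeq2 called 325 genes higher and 251 lower. Ltf, Camp, Ngp, Mmp8, Mmp9 and Retnlg of this list are also the late neutrophil markers summed above.

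**Figure D4:**
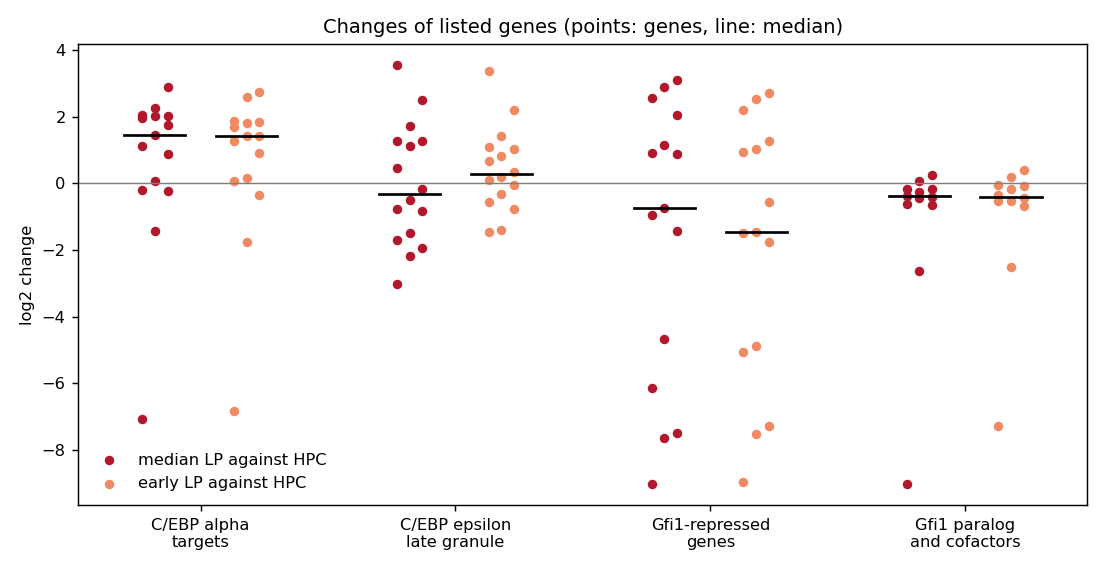
Log2 change against HPC (vertical axis) of each tested gene of 4 lists (points; line, the median) in median LP and early LP. Genes of the C/EBP alpha list centre at 1.44 and 1.42, those of the C/EBP epsilon list spread to both sides of 0, and the Gfi1 list holds genes that are nearly silent in LP beside genes that rose.

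Gfi1 RNA was set beside that of its paralog Gfi1b, which serves red cells and platelets and is itself repressed by Gfi1, and of Irf8, the factor of monocyte fate that Gfi1 represses. Gfi1b had 0.0465, 0.122 and 0.181 FPKM in median LP, 0.231, 0.447 and 0.541 FPKM in early LP, and 55.5, 57.7 and 75.4 FPKM in HPC. These levels rest on 15 recovered fragments in median LP, 47 in early LP and 8615 in HPC, each over 3 libraries. Irf8 had 1.52, 1.72 and 1.36 FPKM in median LP, 1.21, 1.58 and 1.27 FPKM in early LP, and 43.2, 35.4 and 44.0 FPKM in HPC. In every LP library Gfi1 was far above both, while in HPC the 3 genes had levels of a similar order.

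The log2 ratio of Gfi1 to Gfi1b was 10.31 ± 1.15 in median LP, 8.35 ± 0.61 in early LP and -0.67 ± 0.42 in HPC. That of Gfi1 to Irf8 was 6.39 ± 0.15 in median LP, 6.53 ± 0.16 in early LP and -0.06 ± 0.27 in HPC. Neither ratio overlapped between either LP phase and HPC (exact permutation p = 0.1, two-sided, the smallest possible). The ratio of Gfi1 to Irf8 overlapped between the phases (p = 0.3, exact permutation test).

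**Figure D5:**
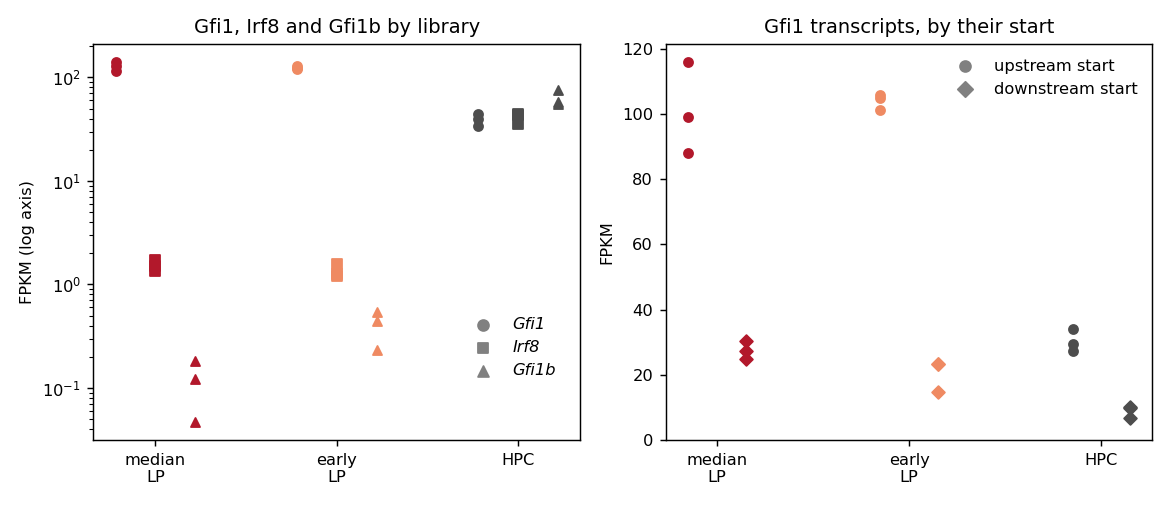
Left, FPKM (log axis) of Gfi1, Irf8 and Gfi1b in each library of median LP, early LP and HPC. Right, FPKM of the Gfi1 transcripts from the upstream and the downstream start. Gfi1b and Irf8 stand near Gfi1 in HPC alone, and the upstream-start transcript leads in every library.

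The RNA of Gfi1 came mainly from the transcript of the upstream start, the first of the Gfi1 windows shown above. It had 101 ± 14.1 FPKM in median LP, 104 ± 2.47 in early LP and 30.4 ± 3.45 in HPC. The transcript of the downstream start had 27.6 ± 2.75 FPKM in median LP, 20.5 ± 4.92 in early LP and 8.94 ± 1.85 in HPC. Both were higher in every LP library than in every HPC library. The downstream start took 22.6% ± 3.53 of the Gfi1 counts in median LP, 17.2% ± 3.63 in early LP and 23.6% ± 2.96 in HPC. Early LP and HPC did not overlap (difference -6.38 percentage points, exact permutation p = 0.1, the smallest possible), and median LP overlapped with both. The division of reads between transcripts that share exons is an estimate of the authors' program.

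Genes that Gfi1 is known to repress were read from a list of 15 analysed, 7 of which were called higher, 7 lower and 1 not in median LP, and 5 higher, 8 lower and 2 not in early LP. Of all tested genes 36.0% were called higher and 37.7% lower in median LP, and 35.3% and 37.9% in early LP. The median log2 change of the list was -0.73 in median LP and -1.47 in early LP. Near silence in LP was found for Gfi1b (log2 -9.04 and -7.28 in median and early LP). Meis1, a homeobox factor of stem cells, was also nearly silent (-7.49 and -7.51), on 12 recovered fragments in each phase. At that floor its change depends on the processing. Its most abundant transcript alone gave -7.87 and -12.19, and other alternatives reached -3.20 and -3.19. Irf8 changed by -4.67 and -4.88. It kept 4.74 ± 0.618 CPM in median LP and 4.11 ± 0.565 in early LP, against 121 ± 13.6 in HPC. Cdkn1a, the cell cycle inhibitor p21, was among the genes called higher, with 78.9, 66.9 and 75.1 CPM in median LP, 36.3, 41.8 and 40.1 CPM in early LP, and 8.72, 8.12 and 9.01 CPM in HPC (log2 3.09 and 2.19). So were Id1 (log2 2.90 and 2.70) and Ets1 (log2 2.57 and 2.55), named here after their values were seen. Hlf, Meis1 and Flt3 of the lists here are also among the stem and progenitor markers, and Csf1r stands in the lists of both factors.

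Genes on a list of Gfi1 cofactors and other genes tied to Gfi1, not all of them corepressors, were mostly somewhat lower. Of 12 tested genes of that list, with Gfi1b among them, 1 was called higher, 9 lower and 2 not in median LP, and 2 higher, 7 lower and 3 not in early LP, with a median log2 change of -0.39 and -0.40. Among all tested genes 36.0% were called higher and 37.7% lower in median LP, and 35.3% and 37.9% in early LP. Pias3 (log2 0.26 and 0.40) was called higher in both phases and Hdac1 (log2 0.19) in early LP. Both were named here after their values were seen. Kdm1a, the demethylase Lsd1, had 68.0 ± 4.34 CPM in median LP, 73.8 ± 5.06 in early LP and 107 ± 1.31 in HPC (log2 -0.65 and -0.54). Hdac2 and Hdac3, histone deacetylases, changed by -0.62 and -0.40 in median LP and by -0.68 and -0.36 in early LP. Rcor2, a CoREST family scaffold, had 1.38 ± 0.309 CPM in median LP, 1.48 ± 0.167 in early LP and 8.53 ± 1.03 in HPC (log2 -2.63 and -2.52). Between the phases edgeR called 0 of 12, and DESeq2 called 1 lower. There edgeR called 2.48% of all tested genes, and DESeq2 called 325 genes higher and 251 lower.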

How the data were processed

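Per the file headers, the authors deposited 1 table of 21388 RefSeq transcripts with FPKM, estimated counts and transcript length in bases. The submitters' processing notes name TopHat2 2.0.6 and mm10; the sources used here give neither the program that quantified transcripts nor its annotation or use of strand. The deposited estimated counts were summed by gene symbol and rounded to whole numbers. They were tested with edgeR 4.0.16 (R 4.3.3), quasi-likelihood, TMM scaling and filterByExpr, in 1 fit of 9 libraries with 1 coefficient per group. Calls were two-sided, at an adjusted p (Benjamini-Hochberg over 12837 genes) under 0.05. The common biological coefficient of variation was 9.81%. CPM carry the TMM scaling, and a log2 change is the first named group over the second. A low count was a whole multiple of 1 step per library, which gave recovered fragments (89.9 to 91.6% of values up to 50 steps whole within 0.05). The fit was tested on simulated data. Shares and ratios used the deposited FPKM with exact permutation tests. Promoters came from RefSeq, and GC content from GRCm38.

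The genes and lists were chosen with earlier results of these data known. All 7 genes were described, and from each list the 5 genes with the smallest adjusted p in any comparison, with a few named beforehand (Ddit3, Trib1, Trib2, Runx1, Gfi1b, Kdm1a, Irf8, Csf1r, Csf3r, Ltf, Camp and Ngp). Spi1 was also named beforehand, as a C/EBP regulator and a Gfi1 target, but that symbol was not found among the genes listed. For each of the 7, the 3 genes most like it in pattern were named. Genes that these rules pick but the text leaves out are not reported here. Alternatives were other scalings and filters, DESeq2 1.42.0, limma 3.58.1 on log2 FPKM with 1 or 0.1 added, offsets for GC content and length, a replicate block, leaving out each library, and a covariate for the length slope of a library, the last added after the data had been seen. Counting sets the precision of rare genes, and the floor of Gfi1b, Hlf, Meis1 and Trib2 in LP and of Trib3 in HPC is that of a few fragments. The size of their changes against HPC depends on the processing. Python 3.11.15 was used for summaries.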

Additional observations from a re-analysis of the deposited data

Results flagged for a closer look

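The change against HPC differed between the leukemic phases for 5 genes named from the lists, by the test of median LP against early LP itself (edgeR, adjusted p under 0.05), and for none of the 7 factor genes. Cdkn1a, the inhibitor p21, was higher in median LP by 0.90 on the log2 scale (adjusted p = 0.000257). Atf5, a leucine zipper factor of the stress response, was higher by 0.45 (adjusted p = 0.0111), and its locus is shared with another gene. Ltf was lower in median LP, with a log2 difference of -1.62 (adjusted p = 0.00116). Mmp8 had a difference of -1.89 (adjusted p = 0.000334). Fos, the immediate early factor, had a difference of -2.04 (adjusted p = 0.00329). The Atf5 call ended without early LP 2, median LP 1 or median LP 2 (adjusted p = 0.0600, 0.0521 and 0.0527) and with limma on log2 FPKM (0.0575 to 0.0618). For each of the 5 genes the libraries of the phases did not overlap.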

How the results depend on the processing

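No result changed sign past its threshold in any alternative. Among the 7 factor genes, every call against HPC for Cebpa, Cebpb, Cebpd, Cebpg, Cebpz and Gfi1 held in all 24 alternatives of each comparison. The call of Cebpe in early LP held in 11 of 24. It was lost with upper quartile scaling (0.21, adjusted p = 0.126), the highest transcript in place of the sum (0.28, 0.0654), only the 2 groups in the fit (0.29, 0.0701) and limma on log2(FPKM + 1), with or without a filter (0.26, 0.107 and 0.108), or + 0.1 (0.26, 0.103), and the leave-outs gave log2 changes of 0.19 to 0.40. With GC and length offsets Cebpe was called in median LP (0.24, 0.0172), Cebpa between the phases (0.37, 0.00176) and Cebpb too (0.54, 0.0283). The count of genes called between the phases, 318, moved to 718 with these offsets, 605 with only the 2 groups, 1294 with the length slope (chosen after seeing the data), 176 with filtered limma and 576 with DESeq2. It moved to 105 to 194 without any 1 LP library and to 687 without HPC 3, with 105 to 687 as the range over leave-outs.

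The replicate numbers did not pair the libraries (same-number correlations of deviations -0.21 to 0.12). With a replicate block the early LP change of Cebpe was 0.28 (adjusted p = 0.0640) and 192 genes were called between the phases. The block with GC and length offsets gave 490, Cebpa 0.37 (0.00801) and Cebpb 0.53 (0.0545, no longer a call) between the phases and Cebpe 0.24 (0.0272) in median LP.

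From counts per kilobase, the share differences against HPC became 4.62 points for Cebpa and 7.85 for Cebpb in median LP, and 0.597 for Cebpa, 6.01 for Cebpb and 17.3 for Cebpd in early LP, where FPKM gave 1.70, 11.8, -1.52, 8.65 and 15.2. Of single genes, Ddit3 lost its call in early LP with upper quartile scaling and without early LP 3, HPC 1 or HPC 2, and Fos without early LP 1, early LP 2 or HPC 1. Mmp8 was called higher in early LP without HPC 3 (0.37, 0.0374). Genes of the Gfi1 cofactor list called higher numbered 0 or 1 in median LP and 1 to 3 in early LP. Targets of C/EBP alpha called lower in median LP numbered 4 with upper quartile scaling or the length slope. Those called between the phases reached 2 higher and 4 lower, including Ctsg and Elane in 5 alternatives, DESeq2 among them. The cause of these shifts was not tested.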

Other observations

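The leucine zipper genes that can pair with C/EBP proteins or share their element, in a list of 15 tested, were divided: 8 were called higher, 6 lower and 1 not in median LP, and 7 higher, 4 lower and 4 not in early LP, with median log2 changes of 0.35 and 0.30. All tested genes were divided too, with 36.0% called higher and 37.7% lower in median LP, and 35.3% and 37.9% in early LP. Atf4, the translationally controlled factor of the integrated stress response, had 523 ± 31.7 CPM in median LP, 479 ± 49.1 in early LP and 212 ± 23.7 in HPC (log2 1.30 and 1.18 in median and early LP). Atf5 had 65.4 ± 3.82, 47.8 ± 1.29 and 9.83 ± 1.11 CPM in median LP, early LP and HPC (log2 2.73 and 2.28). Ddit3, the C/EBP relative CHOP, had 14.6 ± 1.41, 13.8 ± 1.44 and 11.2 ± 1.11 CPM (log2 0.39, adjusted p = 0.00959, and 0.30, adjusted p = 0.0345), and its locus is shared with another gene. The early LP call of Ddit3 was lost in 4 alternatives. Atf3, a stress-induced factor named here after its values were seen, was rare, with 1.61, 1.14 and 0.308 CPM in median LP, 0.0435, 0.251 and 0.458 CPM in early LP, and 0.294, 0 and 0.117 CPM in HPC. It was called higher in median LP (log2 2.87, adjusted p = 0.00654) and not in early LP (log2 0.87, adjusted p = 0.466). Nfil3, a repressor with a zipper of the same class, had 29.3 ± 2.50, 25.5 ± 0.622 and 5.29 ± 0.504 CPM (log2 2.47 and 2.27).

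Hlf, a zipper factor of stem cells, had 0.130 ± 0.0777 CPM in median LP, 0.296 ± 0.109 in early LP and 28.3 ± 2.85 in HPC (log2 -7.72 and -6.55), on 10, 20 and 2238 recovered fragments. Alternatives for Hlf reached -2.51 in median LP and -2.48 in early LP. Fos had 38.9, 35.5 and 28.4 CPM in median LP, 133, 113 and 179 CPM in early LP, and 354, 141 and 252 CPM in HPC. Median LP lay below both other groups, while early LP and HPC overlapped (log2 -2.86, adjusted p = 2.69e-06, in median LP and -0.82, adjusted p = 0.0163, in early LP).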
